A study of Mus musculus with 8 samples.

Results

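The genes described here are 10 genes of cytotoxic lymphocytes: the granzyme genes Gzma, Gzmb and Gzmc, the perforin gene Prf1, the granule gene Nkg7, the natural killer (NK) cell receptor gene Ncr1, the cytokine receptor gene Il2rb, the surface protein gene Cd7, the kinase gene Txk and the granzyme inhibitor gene Serpinb9. They were chosen by gene symbol, and all 10 were measured, each by a single probe set (the group of probes on the array that reports a gene), among 19938 genes in all. The RNA came from whole uteri of 8 female mice, with 1 microarray per uterus. The 4 controls were Pgr+/+ Foxa2+/+ and carried no Cre. The 4 Foxa2-deleted females were PgrCre/+ Foxa2flox/flox, so that 1 allele of the progesterone receptor gene Pgr carried the Cre recombinase and deletion was directed to cells that use Pgr. All were mated to wild type vasectomized males, which brings on pseudopregnancy without embryos, and were killed at day 3.5, with the day of the plug as day 0.5. Ages and strain are not given in the labels. Cre and the loss of 1 intact Pgr allele came together with the Foxa2 deletion, and their effects cannot be told apart.

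Foxa2 stood at 8.61, 8.82, 8.74 and 8.73 in control replicates 1 to 4 and at 8.22, 8.20, 8.21 and 8.21 in Foxa2-deleted replicates 1 to 4, so the arrays followed their labels. The change was -0.52 (SE 0.05, adjusted p = 0.0013, limma), and whether the probes lie in the deleted part is not given in the sources used. Values are log2 intensities between 2.73 and 14.33, with array medians of 8.25 to 8.32. The uterine genes Esr1, Pgr, Hoxa10 and Hoxa11 read at 9.41 or above on every array. The lowest value was that of Hoxa11 in Foxa2-deleted replicate 3. Hoxa11, Hoxa10 and Esr1 changed by -0.63 (SE 0.20), -0.27 (SE 0.13) and 0.10 (SE 0.06), none with an adjusted p under 0.05 (limma). Pgr, of which the deleted females carry 1 intact allele, was higher by 0.37 in them (SE 0.10, adjusted p = 0.0428, limma), with every deleted uterus above every control. The Pgr call was lost when any control or Foxa2-deleted replicate 1 or 4 was dropped (highest adjusted p 0.106), and under quantile normalisation or with all probe sets tested. Over all genes 1311 were lower and 898 higher in Foxa2-deleted uteri, so that 59.3% of the called genes were lower. That share was 48.2% under a second quantile normalisation, 47.6% with arrays centred on their medians and 49.7% under cyclic loess.

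NK cells and cytotoxic T cells kill by releasing granules onto a target cell. Perforin opens the target membrane and granzymes, which are serine proteases, enter and cleave proteins that lead to cell death, while serpin B9 inside the killer cell inactivates granzyme B that leaks from granules. In the uterus, NK cells are a main lymphocyte of the endometrium, expand as the stroma decidualizes, depend on interleukin 15 (IL-15) and are known for their part in remodelling maternal arteries. FOXA2 is a transcription factor of the endometrial glands.

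The promoters of these genes are shown first, and whether the motifs have a part in the changes was not tested. Of the 10 genes, 8 had a start site in the RefSeq promoter table (GRCm38.p6), and 15614 of the tested genes had one. In the 250 bases before the start, the core RUNX motif TGTGGT occurred on either strand in 7 of these 8 genes, all but Serpinb9, against 13.8% of the tested genes with a promoter. The forkhead motifs TGTTTAC and TATTTAC occurred in 0 of the 8, against 3.18% and 2.59% of tested genes. The T-box motif AGGTGTGA and the STAT motif TTCNNNGAA occurred in Nkg7 alone (1.12% and 7.71% of tested genes), the AP-1 motif TGACTCA in Gzmb alone (4.75%) and the cyclic AMP response element TGACGTCA in Gzmc alone (2.33%). Genes with several starts have more sequence in which to match: Ncr1 and Txk have 2 starts each in the table. A match says only that these letters are present, and no match says only that they are not in this window. Printed below are the 4 promoters whose start is the outermost end of the gene in RefSeq, 5′ to 3′ on the strand of the gene, with every searched motif in capitals.
Gzmb, chr14:56262335-56262584 (minus strand): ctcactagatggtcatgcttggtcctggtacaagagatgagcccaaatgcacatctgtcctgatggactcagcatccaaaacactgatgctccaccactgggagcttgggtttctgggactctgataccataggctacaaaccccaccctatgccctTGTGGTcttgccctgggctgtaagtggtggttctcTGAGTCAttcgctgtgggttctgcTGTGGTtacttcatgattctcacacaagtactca
Gzma, chr13:113100982-113101231 (minus strand): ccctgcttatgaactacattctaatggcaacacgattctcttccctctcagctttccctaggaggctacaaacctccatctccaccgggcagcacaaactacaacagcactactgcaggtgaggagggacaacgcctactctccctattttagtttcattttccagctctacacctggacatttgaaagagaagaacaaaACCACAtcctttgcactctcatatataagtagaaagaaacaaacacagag
Nkg7, chr7:43436888-43437137 (plus strand): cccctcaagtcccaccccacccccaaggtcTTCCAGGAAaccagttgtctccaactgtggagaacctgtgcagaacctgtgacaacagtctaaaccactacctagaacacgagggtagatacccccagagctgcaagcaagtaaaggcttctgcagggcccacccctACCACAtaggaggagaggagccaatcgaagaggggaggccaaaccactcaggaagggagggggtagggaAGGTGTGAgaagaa
Ncr1, chr7:4337465-4337714 (plus strand): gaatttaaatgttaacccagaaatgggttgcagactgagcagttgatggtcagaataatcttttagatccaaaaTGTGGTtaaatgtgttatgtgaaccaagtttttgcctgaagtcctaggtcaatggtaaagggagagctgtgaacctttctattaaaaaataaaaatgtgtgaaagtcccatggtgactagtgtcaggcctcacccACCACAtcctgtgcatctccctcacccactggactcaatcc

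In Gzmb the RUNX letters lie 93 to 88 and 34 to 29 bases before the start, on either side of the AP-1 letters at 58 to 52. In Gzma they lie 50 to 45 bases before the start and in Nkg7 83 to 78, both on the opposite strand. In Ncr1 they occur 176 to 171 and, on the opposite strand, 41 to 36 bases before the start. The Nkg7 window also holds the T-box letters 14 to 7 bases before the start.

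All 10 genes were lower in Foxa2-deleted uteri. Each passed 0.05 in the limma fit after Benjamini-Hochberg adjustment over all genes tested. Over all genes tested 6.58% were called lower and 4.5% higher, and the median change was 0.01 on the log2 scale. The 10 genes fell by between 1.35-fold for Serpinb9 and 3.59-fold for Gzmb, with a median log2 change of -1.11. In 9 of the 10, every deleted uterus lay below every control, which was so for 11.6% of all genes. With each array left out in turn, between 6 and 10 of the 10 calls held, 6 of them without control replicate 4 and 10 without Foxa2-deleted replicate 2. Ncr1, Il2rb, Gzmb, Cd7, Txk and Serpinb9 kept their call without any single array. In whole tissue, fewer cells of a type and less RNA per cell cannot be told apart.

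**Figure D1:**
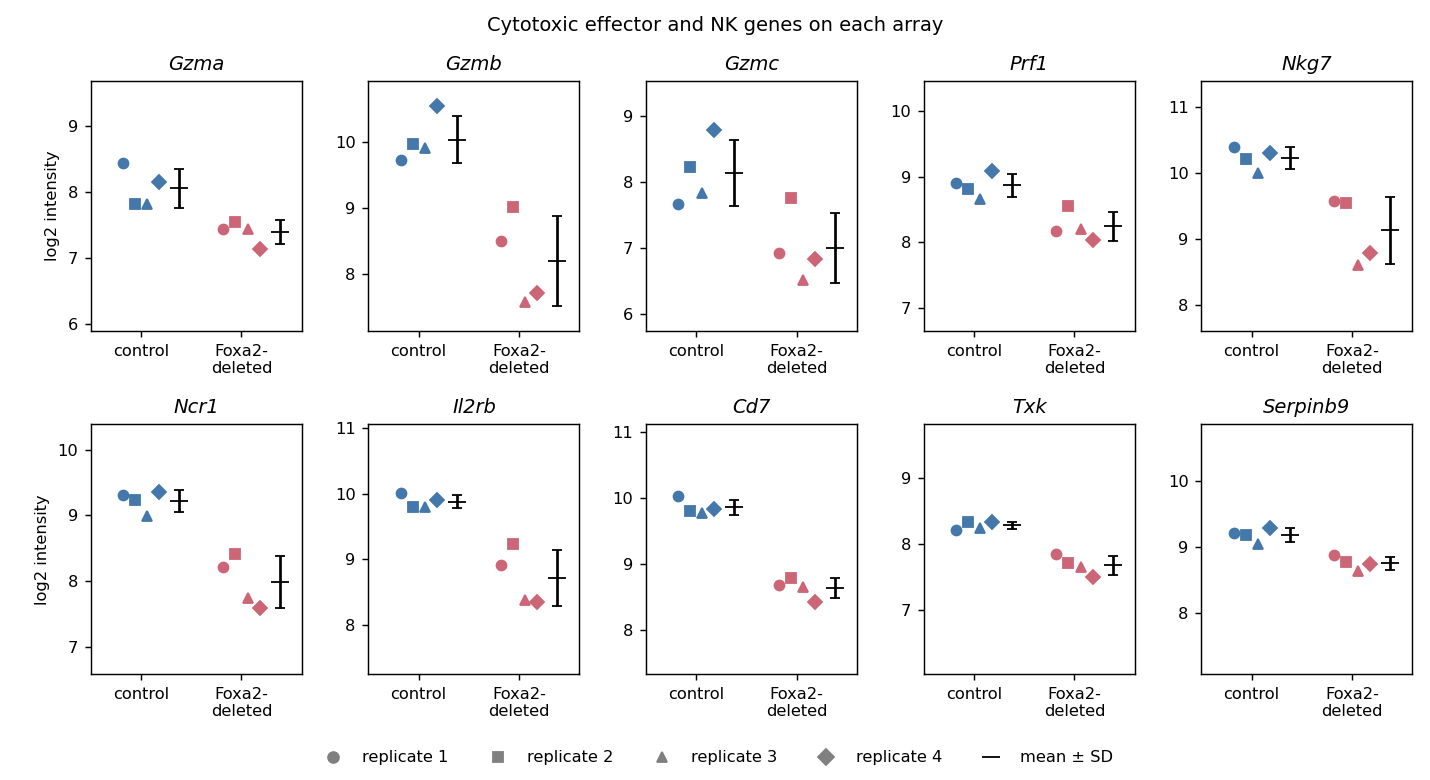
Log2 intensity of each gene on each of the 8 arrays, with controls in blue, Foxa2-deleted uteri in red, 1 symbol per replicate number, and the mean ± SD of each group beside the points (n = 4). Each panel spans the same number of log2 units. The groups overlap only for Gzmc, where Foxa2-deleted replicate 2 (7.76) lies above control replicate 1 (7.67).

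Granzyme B, encoded by Gzmb (probe set 10420308), cleaves target proteins after aspartate. Its log2 intensity was 9.73, 9.97, 9.90 and 10.54 in control replicates 1 to 4 and 8.49, 9.01, 7.56 and 7.70 in Foxa2-deleted replicates 1 to 4. The deleted uteri spread over more than a log2 unit, with replicate 2 nearest to the controls, and none reached the lowest control. The group means were 10.04 ± 0.35 and 8.19 ± 0.68 (SD, n = 4 each). The change was -1.84 (SE 0.32, 95% interval -2.57 to -1.12, adjusted p = 0.0128, limma). Gzmc (probe set 10420302) encodes another granzyme, next to Gzmb in gene order. It stood at 7.67, 8.23, 7.84 and 8.80 in controls and at 6.93, 7.76, 6.51 and 6.83 in deleted uteri. Here the groups overlapped, since Foxa2-deleted replicate 2 exceeded control replicate 1. Gzmc fell by 1.13 (SE 0.30, adjusted p = 0.0469, limma), a call that was lost without any single array other than Foxa2-deleted replicate 2 (adjusted p up to 0.120). It was also lost under a second quantile normalisation (0.0511), centring on array medians (0.0505), testing of all probe sets (0.0622) and a variance trend with robust prior (0.0542). Gzma (probe set 10412211) encodes the tryptase-like granzyme A. Its values were 8.44, 7.81, 7.82 and 8.15 in controls and 7.43, 7.55, 7.44 and 7.13 in deleted uteri, so the lowest control was 7.81 and the highest deleted uterus 7.55. It fell by 0.67 (SE 0.15, adjusted p = 0.0269, limma), with the call lost without control replicate 4 (0.0840) or Foxa2-deleted replicate 1 (0.0575).

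Prf1 (probe set 10363475) encodes perforin, the pore-forming protein. It ranged from 8.66 to 9.08 in controls (8.91, 8.81, 8.66 and 9.08) and stood at 8.17, 8.56, 8.21 and 8.04 in deleted uteri, where replicate 2 came closest to the controls. The fall was 0.62 (SE 0.12, adjusted p = 0.0191, limma), and it missed the threshold when control replicate 1, 2 or 4 was dropped (highest adjusted p 0.0600). Nkg7 (probe set 10552406) encodes a membrane protein of cytotoxic granules. It stood at 10.39, 10.22, 10 and 10.30 in controls and 9.58, 9.54, 8.60 and 8.79 in deleted uteri. The deleted uteri fell into a higher pair, replicates 1 and 2, and a lower pair, replicates 3 and 4, all under the controls. Nkg7 fell by 1.10 (SE 0.22, adjusted p = 0.0206, limma), but leaving out any single control ended the call, with an adjusted p of up to 0.0675.

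Ncr1 (probe set 10549647) encodes NKp46, an activating receptor used to define NK cells. Controls stood at 9.31, 9.23, 8.99 and 9.35 and deleted uteri at 8.22, 8.41, 7.74 and 7.59. No deleted uterus reached the lowest control, and the fall was 1.23 (SE 0.18, adjusted p = 0.0069, limma), or 2.35-fold. Il2rb (probe set 10430344) encodes the beta chain shared by the IL-2 and IL-15 receptors. It stood at 10.01, 9.80, 9.80 and 9.91 in controls, which were closely grouped, and at 8.91, 9.24, 8.39 and 8.36 in deleted uteri, where replicates 3 and 4 were lowest. It fell by 1.16 (SE 0.18, adjusted p = 0.0102, limma). Cd7 (probe set 10394054) encodes an immunoglobulin-family surface protein of T and NK cells. It stood at 10.03, 9.81, 9.78 and 9.83 in controls and at 8.69, 8.79, 8.66 and 8.42 in deleted uteri, the widest clear gap of the 10 genes. It fell by 1.22 (SE 0.09, adjusted p = 3.5e-04, limma), the smallest adjusted p among them.

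Txk (probe set 10530516) encodes a kinase of the Tec family found in T and NK cells. Its values were 8.22, 8.34, 8.25 and 8.33 in controls and 7.85, 7.72, 7.65 and 7.50 in deleted uteri, with no overlap. It fell by 0.60 (SE 0.07, adjusted p = 0.0036, limma), or 1.52-fold. Serpinb9 (probe set 10404429) encodes the granzyme B inhibitor, which is not restricted to lymphocytes. It stood at 9.21, 9.18, 9.04 and 9.29 in controls and 8.87, 8.76, 8.63 and 8.74 in deleted uteri. Both groups were tight and apart, and the fall of 0.43 (SE 0.07, adjusted p = 0.0105, limma) was the smallest of the 10.

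**Figure D2:**
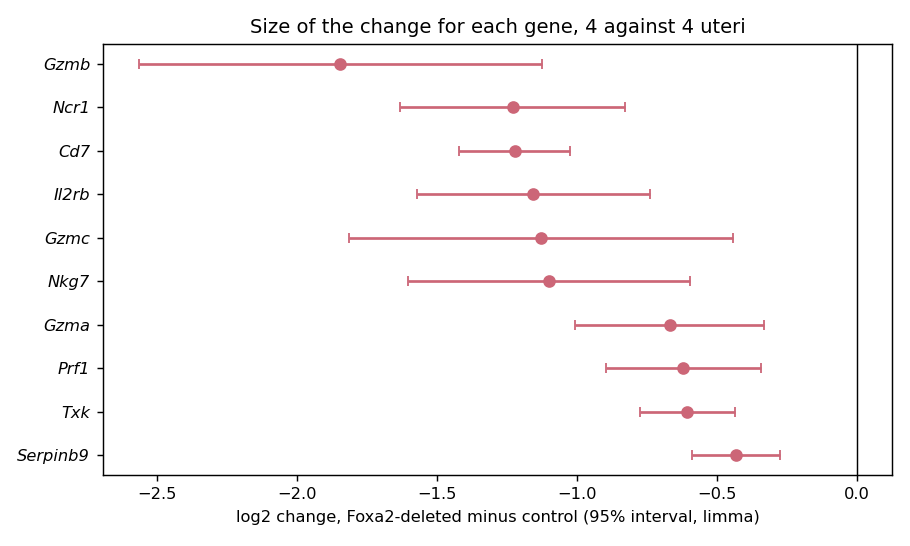
Log2 change of each gene (Foxa2-deleted minus control, 4 against 4 uteri) as points, with bars for the 95% interval of the limma fit. All intervals lie below 0, from -0.27 at the upper end for Serpinb9 to -2.57 at the lower end for Gzmb.

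The deleted uteri did not move evenly. Averaged over the 10 genes and relative to the control mean, Foxa2-deleted replicates 1 to 4 lay at -0.86, -0.64, -1.24 and -1.26, while controls lay between -0.17 and 0.18. Foxa2-deleted replicate 2 was the highest of its group in 7 of the 10 genes and replicate 1 in 3. Replicate 4 was the lowest in 6 and replicate 3 in 4. The SD over deleted uteri exceeded that over controls in 8 of the 10, by up to 4.22 times for Il2rb, and was smaller for Gzma (0.60 times) and Serpinb9 (0.94 times). Deleted uteri had the larger SD in 70.3% of all genes.

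Some of these genes varied together from uterus to uterus. The correlation of deviations from the genotype means over the 8 arrays was highest between Ncr1 and Il2rb (Pearson r = 0.94), Nkg7 and Ncr1 (0.92) and Nkg7 and Il2rb (0.91). For Gzmb it was 0.89 with Gzmc, 0.86 with Ncr1 and 0.85 with Il2rb, and for Gzma 0.87 with Cd7. Gzma and Gzmc had the lowest of these pooled values (0.09) among the 45 pairs, whose median was 0.62. The pooled values weigh the deleted uteri more for the 8 genes whose SD was larger there. Taken within each genotype, Gzmb and Gzmc (0.97 over the 4 controls, 0.91 over the 4 deleted uteri), Gzma and Cd7 (0.91 and 0.99) and Nkg7 and Ncr1 (0.95 and 0.92) had high values in both. Gzmb and Il2rb did not, with -0.08 over controls and 0.99 over deleted uteri, and Gzmb and Ncr1 stood at 0.40 and 0.96. Over controls alone 9 of the 45 pairs were negative, and over deleted uteri alone 0 were. These are descriptions over 8 points from the same arrays, which share a normalisation. Over all genes with an SD of deviations of at least 0.1, the 8 most like Gzmb by this measure were Kcnab1, a potassium channel subunit gene (0.98), Ldhd (0.96), Nrn1 (0.96), Abca5 (0.96), Ctsq (0.96), Pdgfra (0.95), Ripply3 (0.95) and Ogdhl (0.95). Among 9194 eligible genes Gzmc ranked 57, Ncr1 96 and Il2rb 108 in likeness to Gzmb, while Gzma ranked 3059.

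Gzmb had the largest fall of the 10, and its difference from each of the others was tested on the same arrays. Because that rank comes from these same data, the direction of all 9 differences was fixed beforehand. The p-values below make no allowance for this. The Gzmb fall was larger than that of Serpinb9 by 1.42 (SE 0.35), of Txk by 1.24 (SE 0.34), of Prf1 by 1.22 (SE 0.29) and of Gzmc by 0.72 (SE 0.17). Each of these 4 had the smallest p that 4 against 4 uteri allow in a two-sided exact permutation test (p = 0.029), and none passed when adjusted over the 9 differences (adjusted p = 0.064). The excess over Gzma was 1.18 (SE 0.38), over Nkg7 0.74 (SE 0.23), over Il2rb 0.69 (SE 0.23) and over Ncr1 0.62 (SE 0.23), each with p = 0.057 and adjusted p = 0.064 in the same exact test. Against Cd7 it was 0.62 (SE 0.36, p = 0.20, exact permutation test). So 0 of 9 differences passed after adjustment and 4 had an unadjusted p under 0.05.

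The other granzyme genes were not called. Of 7 measured, 0 passed in limma, with 2 lower and 2 higher at an unadjusted p under 0.05, and their median change was -0.01. All 7 were dim, with control means from 5.7 for Gzmn to 7.70 for Gzmm, under the array medians of 8.25 to 8.32. Without detection calls, unchanged RNA and absent signal cannot be told apart for them. Gzmd stood at 6.27, 7.26, 6.98 and 6.44 in controls and 6.15, 6.07, 5.77 and 6.20 in deleted uteri, a change of -0.69 (SE 0.21, adjusted p = 0.0658, limma). Gzmd was called lower without control replicate 1 (adjusted p = 0.0485). Gzmf changed by -0.44 (SE 0.15, adjusted p = 0.0854, limma). Granzymes C, D, E, F, G and N are closely related paralogs on chromosome 14, and how far their probes tell them apart was not tested. In gene order on that chromosome, a run from the mast cell protease genes through Ctsg to the granzymes ends at Gzmb. The 2 genes at its Gzmb end, Gzmc and Gzmb, were the called granzymes, while Gzme, Gzmg and Gzmn changed by -0.07 (SE 0.09), -0.01 (SE 0.07) and 0.02 (SE 0.05). Ctsg, the cathepsin G gene of the same run, was higher by 0.30 (SE 0.06, adjusted p = 0.0197, limma), and Rnf17 and Cenpj, beyond Gzmb, fell by 0.27 (SE 0.06, adjusted p = 0.0231) and 0.25 (SE 0.06, adjusted p = 0.0289). Ctsg lost its call when control replicate 2, 3 or 4 was dropped, Cenpj with any control dropped, and Rnf17 with any control or Foxa2-deleted replicate 1 dropped (highest adjusted p of the 3 genes 0.0842). Gzmk, the neighbour of Gzma on chromosome 13, changed by 0.19 (SE 0.08, adjusted p = 0.143, limma). The genes of these runs outside the lists were taken by position.

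**Figure D3:**
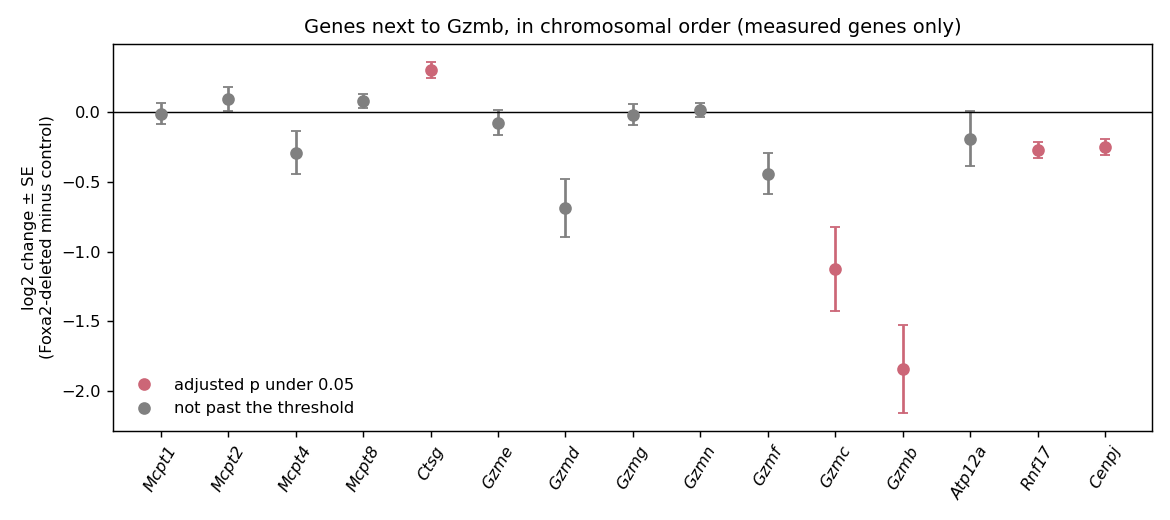
Log2 change ± SE (limma, 4 against 4 uteri) of the measured genes around Gzmb, placed in chromosomal order with no distances shown; red points have an adjusted p under 0.05. Gzmb and Gzmc lie lowest, at -1.84 and -1.13, and Ctsg lies above 0 at 0.30.

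The rest of the granule machinery was called in few genes. Of 14 granule assembly and exocytosis genes measured, 2 fell, 1 rose and 11 were not called (median -0.04). Ctsw, the cathepsin of cytotoxic lymphocytes, fell by 0.64 (SE 0.12, adjusted p = 0.0182, limma), and Cst7, an inhibitor of cathepsins that process granzymes, by 0.44 (SE 0.09, adjusted p = 0.0230). Srgn, which encodes the granule proteoglycan serglycin and is also used by other blood cells and endothelium, rose by 0.26 (SE 0.06, adjusted p = 0.0240). Ctsw and Cst7 both lost their calls when control replicate 2 or 4 was dropped, leaving 0 fallen genes, and Cst7 also without control replicate 1, and the risen gene was lost when control replicate 1, 2 or 3 or Foxa2-deleted replicate 1 was dropped.

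Of 10 death ligand and effector cytokine genes, 2 fell and 8 were not called (median 0.01). Xcl1, a chemokine made by activated NK and T cells, stood at 9.46, 9.62, 9.56 and 9.85 in controls and 8.55, 9.16, 8.17 and 8.39 in deleted uteri. Xcl1 thus showed no overlap and had Foxa2-deleted replicate 2 nearest the controls, as Gzmb did, with a fall of 1.06 (SE 0.19, adjusted p = 0.0149, limma). Fasl, the Fas ligand gene, fell by 0.32 (SE 0.07, adjusted p = 0.0209). The count was 1 without control replicate 1 and 0 without control replicate 2 or 4. Of 8 serpin relatives of Serpinb9, Serpinb1a alone was called, lower by 0.41 (SE 0.08, adjusted p = 0.0163, limma), and not without control replicate 2 (0.0567). The median change of the 8 was 0.07, and only 2 of them, Serpinb1a included, had a change below 0.

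All 11 measured lectin-like NK receptor genes fell (median -0.85), among them Klra8, which encodes Ly49H, by 1.64 (SE 0.15), Klrb1c, which encodes NK1.1, by 1.17 (SE 0.09), Klrd1, the CD94 gene, by 1.04 (SE 0.07) and Klrg1 by 0.95 (SE 0.06). For these 4 named genes the adjusted p ran from 2.6e-04 to 0.0010, and for all 11 up to 0.0325 (limma). The count was 7 without control replicate 2 or 3, and between 8 and 11 without any other array. Most of the 11 also had control means under the array medians. With the dimmest 25% of genes left out the count was 6, and with the lower 50% left out none of the 11 remained in the test. Of 18 further NK receptor and adaptor genes, 5 fell, 2 rose and 11 were not called (median -0.22). Cd96, a receptor for nectin-like proteins, fell by 0.80 (SE 0.12), Sh2d1b1, the adaptor EAT-2, by 0.76 (SE 0.13) and Cd244a, the receptor 2B4, by 0.55 (SE 0.09). Their adjusted p-values were 0.0069, 0.0132 and 0.0102 (limma), and each kept its call with every array left out. Crtam rose by 0.33 (SE 0.05, adjusted p = 0.0067, limma). The other genes called in this group were Tigit and Sh2d1b2, which fell by 0.24 (SE 0.05) and 0.42 (SE 0.09), and Itga2, the integrin gene also used by epithelium and platelets, which rose by 1.12 (SE 0.26). Dropping control replicate 1, 2 or 4 or Foxa2-deleted replicate 1 ended the calls of Tigit and Sh2d1b2 and left 3 fallen genes. Dropping any control or Foxa2-deleted replicate 1 ended that of Itga2 and left 1 risen gene.

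**Figure D4:**
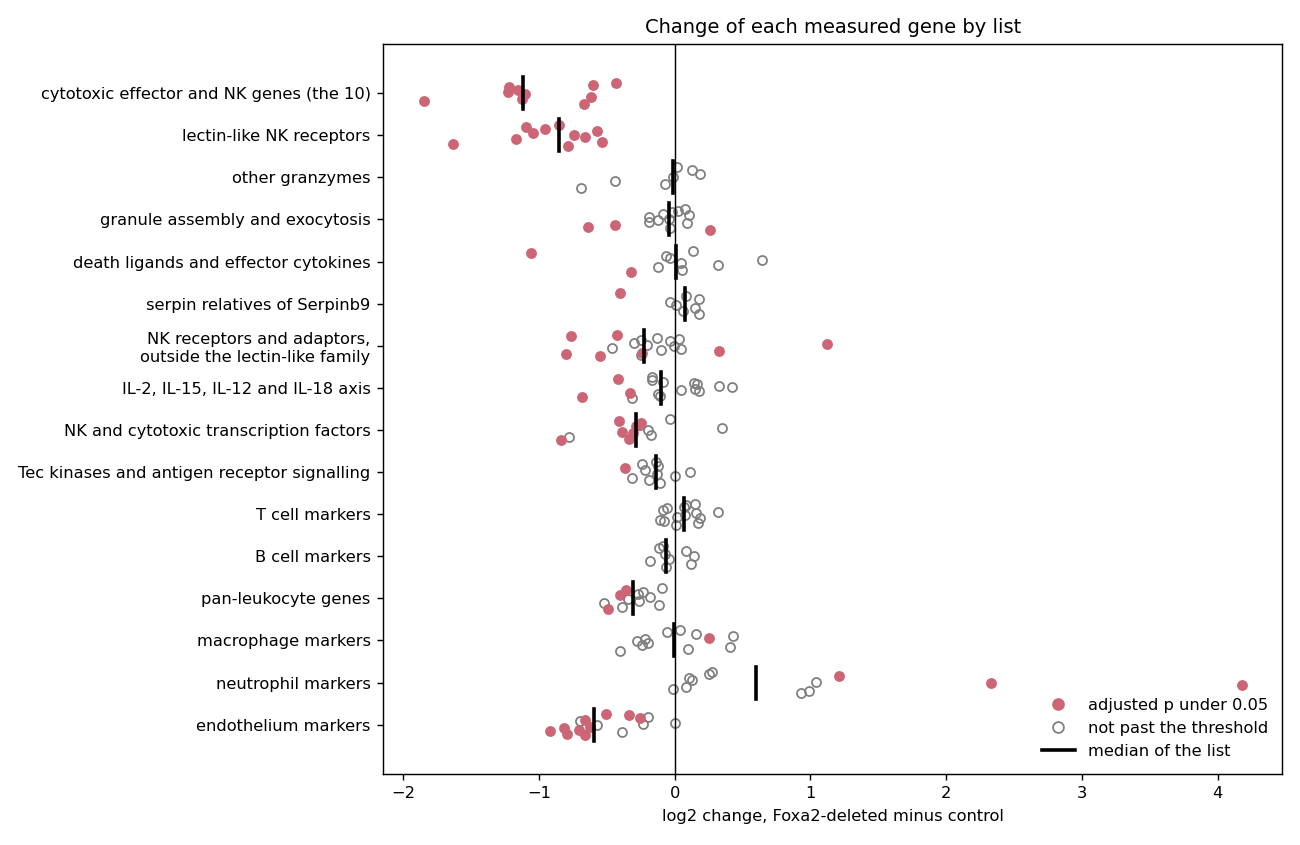
Log2 change of each measured gene (1 point per gene, Foxa2-deleted minus control), grouped by list, with genes at an adjusted p under 0.05 filled and the median of each list as a vertical bar. The 10 cytotoxic effector genes and the 11 lectin-like receptors all lie below 0 and are filled, while none of the T cell or B cell markers is filled. Most T cell markers, B cell markers and lectin-like receptors had control means under the array medians.

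Of 13 measured transcription factor genes of NK and cytotoxic cells, 7 fell, none rose and 6 were not called (median -0.28). At an unadjusted p under 0.05 (limma), 8 of the 13 were lower and 1 higher. Eomes, which with T-bet drives NK cell maturation, fell by 0.84 (SE 0.13, adjusted p = 0.0097, limma), its means being 8.57 ± 0.16 in controls and 7.73 ± 0.26 in deleted uteri (SD, n = 4 each). Tox, which NK cell development needs, fell by 0.39 (SE 0.08), Ets1 by 0.30 (SE 0.07) and Runx3, a RUNX family factor of cytotoxic cells, by 0.28 (SE 0.06). Their adjusted p ran from 0.0237 to 0.0269 (limma). Tox and Ets1 lost their calls when any control or Foxa2-deleted replicate 1 was dropped, and Runx3 when any control was (highest adjusted p of the 3 genes 0.0810). Runx3 was also not called under quantile normalisation or cyclic loess (adjusted p up to 0.0602). Eomes held its call without any array. The count of 7 was 1, 2, 1 and 1 without control replicates 1 to 4, and 4 without Foxa2-deleted replicate 1. It was 4 under a second quantile normalisation and 5 under median centring or cyclic loess.

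Of 16 measured genes of the IL-2, IL-15, IL-12 and IL-18 axis, 3 fell and 13 were not called (median -0.10). At an unadjusted p under 0.05 (limma), 4 of the 16 were lower and 3 higher. Il15ra, whose product presents IL-15 to NK cells, stood at 9.72, 9.66, 9.52 and 9.78 in controls and 8.75, 9.35, 8.78 and 9.08 in deleted uteri. Foxa2-deleted replicate 2 was again nearest the controls, and the fall was 0.68 (SE 0.13, adjusted p = 0.0174, limma). Stat4 fell by 0.42 (SE 0.10, adjusted p = 0.0315) and Jak1, a kinase of many cytokine receptors in most cells, by 0.33 (SE 0.08, adjusted p = 0.0414). The cytokine gene Il15, named beside Il15ra after its values were seen, had means of 9.28 ± 0.19 in controls and 8.97 ± 0.49 in deleted uteri (SD, n = 4 each), a change of -0.31 (SE 0.22, adjusted p = 0.352, limma). The count of 3 was 1, 0, 1 and 0 without control replicates 1 to 4, 1 without Foxa2-deleted replicate 1 or 3, and 2 without Foxa2-deleted replicate 4. Of 11 Tec kinase and antigen receptor signalling genes besides Txk, Plcg1 alone was called, lower by 0.36 (SE 0.08, adjusted p = 0.0269, limma). Dropping any control or Foxa2-deleted replicate 1 ended that call, and the count was 3 without Foxa2-deleted replicate 4. Of 12 genes of NK-attracting chemokines and homing receptors, 0 were called by limma, with 1 lower and 2 higher at an unadjusted p under 0.05. Cxcr4 changed by 0.44 (SE 0.13, adjusted p = 0.0634) and Cxcl12 by -0.39 (SE 0.14, adjusted p = 0.104), and both were called without Foxa2-deleted replicate 2 (0.0336 and 0.0426). Without Foxa2-deleted replicate 4, 1 gene of this group was higher.

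Markers of other cells that express some of these genes or share the tissue were read from the same fit. Of 14 T cell markers 0 were called by limma, with 0 lower and 3 higher at an unadjusted p under 0.05, and their median change was 0.07. Most had control means under the array medians, from 6.6 for Themis, and Cd3e was highest at 8.63. Without detection calls, unchanged RNA and absent signal cannot be told apart for the dim ones. The smallest p-values were those of Cd8b1, which changed by 0.32 (SE 0.12, adjusted p = 0.120, limma), and Bcl11b, by 0.15 (SE 0.06, adjusted p = 0.138). Relative to the control mean the T cell list averaged between -0.02 and 0.27 on the deleted arrays. Of 12 pan-leukocyte genes 3 fell (median -0.31): Ptprc, which encodes CD45, by 0.49 (SE 0.10, adjusted p = 0.0240), Cytip by 0.36 (SE 0.08, 0.0231) and Cd48 by 0.41 (SE 0.11, 0.0455), all by limma. The count was 1 without control replicate 1 or 2, 0 without control replicate 3 or 4, and 5 without Foxa2-deleted replicate 3; Cytip alone was also lost without Foxa2-deleted replicate 1, and Cd48 without Foxa2-deleted replicate 2, 3 or 4. Of 16 endothelium markers 10 fell and none rose (median -0.60), and the list averaged -0.27 to -0.81 on the deleted arrays and -0.04 to 0.05 on controls. That count was 5 without control replicate 1 or 2 and 3 without control replicate 3 or 4. Of 12 neutrophil markers 3 rose, led by Ltf, which uterine epithelium also makes, and the list averaged 0.71 to 1.59 on the deleted arrays and -0.08 to 0.08 on controls. The list's median change was 0.60, and its mean is raised by Ltf (4.18) and Cxcr2 (2.33). Ly6g, the other called gene, rose by 1.21 (SE 0.25, adjusted p = 0.0212, limma). S100a8, S100a9 and Csf3r changed by 0.93, 0.99 and 1.04, and the granule genes Ngp, Camp, Mpo and Elane by -0.01, 0.08, 0.12 and 0.11, none of them called. Of the 12, 7 were higher and 0 lower at an unadjusted p under 0.05 (limma). In 7, every deleted uterus lay above every control, a count for which the share over all genes was not computed. The count of 3 called neutrophil markers was 1 without control replicate 2 or 3 and 6 without Foxa2-deleted replicate 3. The epithelial genes Krt8 and Epcam rose by 0.93 (SE 0.17) and 0.87 (SE 0.22), calls that Krt8 lost without control replicate 4, and Epcam without each control and Foxa2-deleted replicate 1 or 4. Krt18, a further epithelial gene of that list, changed by 0.11 (SE 0.17, adjusted p = 0.693, limma) and was not called. These are changes in marker RNA, and their part in the result for the 10 genes was not tested.

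Ptprc served as a common leukocyte reference on the same array. It was itself called lower, by 0.49, while the 12 pan-leukocyte genes had a median change of -0.31. Relative to a reference that fell less, each of the 10 genes would stand lower, and no other reference was tested. Relative to Ptprc, Gzmb was lower in deleted uteri by 1.36 (SE 0.40), Ncr1 by 0.74 (SE 0.22) and Cd7 by 0.74 (SE 0.13), each with p = 0.029 (two-sided exact permutation test, the smallest that 4 against 4 allow) and adjusted p = 0.095 over the 10 genes. Il2rb, Gzmc and Nkg7 were lower relative to Ptprc by 0.67 (SE 0.25), 0.64 (SE 0.39) and 0.61 (SE 0.29). Their adjusted p-values in the exact permutation test were 0.11, 0.29 and 0.11. For Gzma, Prf1, Txk and Serpinb9 the differences were -0.18 (SE 0.19), -0.13 (SE 0.17), -0.12 (SE 0.09) and 0.06 (SE 0.14). Adjusted p ran from 0.29 to 0.69 for these 4 in the exact permutation test. Thus 0 of 10 passed after adjustment and 3 had an unadjusted p under 0.05. Without Foxa2-deleted replicate 2, where Gzmb minus Ptprc was -0.70 against -2.46 to -1.44 on the other deleted arrays, 6 of the 10 passed (Gzmb, Gzmc, Nkg7, Ncr1, Il2rb and Cd7, each at adjusted p = 0.048, exact permutation test).

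**Figure D5:**
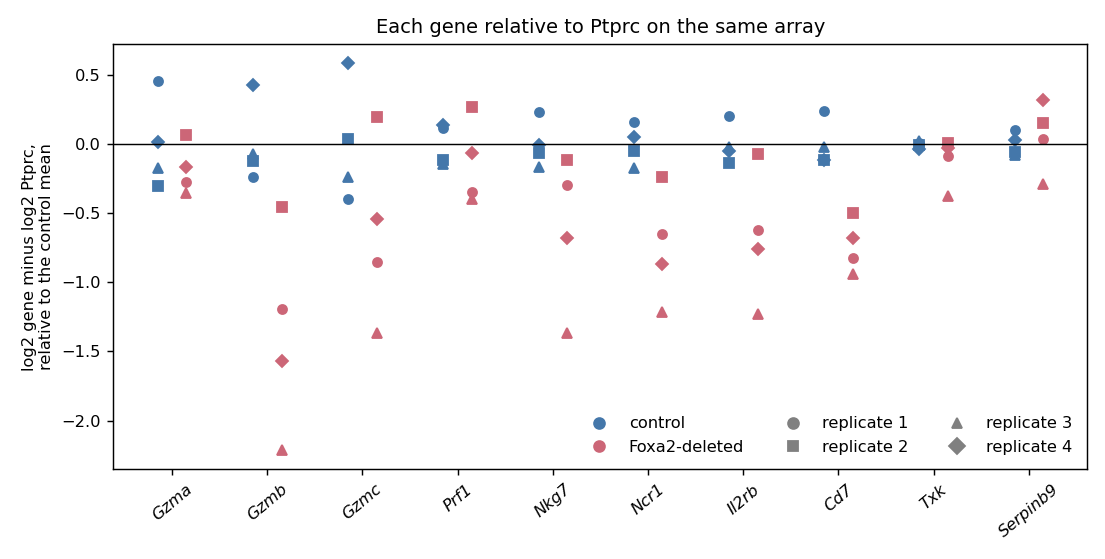
Log2 intensity of each gene minus that of Ptprc on the same array, shifted so that the control mean is 0, for 4 controls (blue) and 4 Foxa2-deleted uteri (red), with 1 symbol per replicate number. For Gzmb all 4 deleted uteri lie below the controls, with replicate 2 nearest, as they do for Ncr1 and Cd7, while for the other 7 genes the groups overlap.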

How the data were processed

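The authors deposited log2 intensities made with RMA, per the submitters' processing notes, which also name limma; RMA corrects background, normalises between arrays and pulls dim probe sets towards a floor, so changes of dim genes are understated. The sources used here do not give versions, build or probe annotation. Total RNA (150 ng) from each uterus was labelled, per the labels' protocols, and array medians were 8.25 to 8.32. The values carry no detection calls, and precision is limited by the number of arrays.

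Of 35556 probe sets, 21789 had 1 gene symbol in the platform annotation held by GEO, 1621 several and 12146 none; the highest-mean probe set was kept for each of 19938 genes. Genotypes were compared with lmFit and eBayes in limma 3.58.1 (R 4.3.3), without covariates, across all genes. The procedure was tested on simulated data with the same SD in both genotypes, so the larger SD of many genes in deleted uteri was not covered. Single within-array differences were compared by two-sided exact permutation over 70 arrangements. The labels call the replicates biological, so p-values measure the spread between mice. Same-numbered arrays did not deviate together (r from -0.05 to 0.06), so numbers were not taken as pairs. Symbols missing from the array were sought by synonym, which gave Cd244a for Cd244. Genes, lists and tests were chosen with earlier results of these data known. Picked for naming were the 10 genes, the 8 genes most like Gzmb, and Foxa2, Pgr and Ptprc. From each other list up to 4 called genes with the smallest p were picked, or 2 where none was called. Of these, the endothelium genes Pecam1, Tie1, Egfl7 and Esam, and Wnt4, Blk, Cr2 and Cma1, are given without values. Added after their values were seen were Tigit, Sh2d1b2, Itga2, Il15, Gzmm, Cd3e, Themis, Krt18, the neutrophil genes besides Ltf, Cxcr2 and Ly6g, and genes named by position. The values of Esr1, Hoxa10 and Hoxa11 were likewise added. Alternatives covered scaling, filters on dim genes, probe set choice, variance model, array weights, the replicate number as a block, and each array left out.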

Additional observations from a re-analysis of the deposited data

Results flagged for a closer look

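In 6 of 156 groups of 4 arrays examined (78 named genes in both genotypes), the highest or lowest array stood far from the others by Dixon's criterion at 95%, where chance flags about 1 in 20 groups. Fasl was 7.35 in control replicate 3 against 7.47 to 7.49 in the other controls. Crtam was 6.78 in control replicate 4 against 6.88 to 6.89. Gzmg was 6.52 in control replicate 2 against 6.34 to 6.37. Rnf17 was 6.88 in control replicate 2 against 6.82 in each other control. Tigit was 8.95 in control replicate 3 against 9.06 to 9.08. Itga2 was 11.51 in Foxa2-deleted replicate 3 against 10.19 to 10.31 in the other deleted uteri. None of the 10 cytotoxic effector genes met the criterion in either genotype.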

How the results depend on the processing

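Of the 10 genes, 9 or 10 were called lower under each of 3 other scalings, with the dimmest 25% of genes left out, with probe sets averaged or all tested, with a variance trend or with array weights, and none of the genes called here turned direction under any setting run. With the lower 50% of genes left out, 5 of the 10 remained in the test and 5 were called. Leaving out each array in turn gave 6 to 10. Of the 109 other pathway genes, 24 were called, 13 with the lower 50% left out and 6 to 30 with an array left out. Over all genes 2209 were called, and 556 to 3059 with an array left out. The replicate number as a block gave 1062 calls over all genes, 14 among the other pathway genes and 7 of the 10 (Gzma, Gzmc and Prf1 lost theirs); the numbers did not pair the arrays. The count of genes lower relative to Ptprc was 0, and 0 to 6 with an array left out; the paired exact test by replicate number cannot go below p = 0.125. The cause of these losses was not tested, except that fewer genes or arrays entered some settings.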

Other observations

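Of 6 measured innate lymphoid cell markers Kit alone was called, lower by 0.96 (SE 0.20, adjusted p = 0.0231, limma), a receptor gene also used by mast cells. Dropping any control ended that call (highest adjusted p 0.0745). The median change of these 6 genes was 0.125, and only 2 of them, Kit included, had a change below 0. Of 10 mast cell and basophil markers 0 were called by limma 3 were lower at an unadjusted p under 0.05, 9 of the 10 had a change below 0, and the median was -0.20; Hdc, the histidine decarboxylase gene, changed by -0.96 (SE 0.35, adjusted p = 0.104) and was called without Foxa2-deleted replicate 2 (0.0098). The count of this list was 1 without Foxa2-deleted replicate 2 or 4. Of 9 B cell markers 0 were called and 0 had an unadjusted p under 0.05 (limma), with a median change of -0.07. Most of the 9 had control means under the array medians. Of 12 macrophage markers Cd163 alone was called, higher by 0.25 (SE 0.07, adjusted p = 0.0487, limma), and this call was lost without any array other than control replicate 1. The median change of the 12 was -0.01, and 6 of them had a change below 0.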
